A study of Mus musculus with 12 samples.

Results

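Genes that changed in the same direction when TAp73-/- and TAp73+/+ cells were moved to 1% oxygen are described here. All 8 arrays of cells kept at 1% oxygen (hypoxia) were compared with all 4 arrays of untreated cells, with genotype as a block, across the 10873 genes with a detected probe. A gene was taken as shared where the pooled comparison passed a Benjamini-Hochberg adjusted p below 0.05 in limma and where all 4 genotype-by-time groups differed from the untreated cells of their own genotype in the direction of the pooled change. By this rule 2275 of the 10873 genes were shared, 961 of them higher and 1314 lower at hypoxia.

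RNA of mouse cells labelled as embryonic fibroblasts was hybridised to Illumina bead arrays, with 12 arrays that formed 6 groups of 2. The groups were TAp73-/- cells after 4 h and after 8 h at 1% oxygen, untreated TAp73-/- cells, TAp73+/+ cells after 4 h and after 8 h at 1% oxygen, and untreated TAp73+/+ cells. All were grown in DMEM with 10% serum, and the untreated cells stayed at 21% oxygen. TAp73 stands for the isoforms of p73, the product of Trp73, that carry the transactivation domain, and TAp73-/- cells lack them by label. Untreated arrays are labelled 0 h and no array is labelled as untreated for 4 or 8 h, so time in the dish and oxygen cannot be told apart. The labels do not say that replicates were separate cultures or that a genotype comprised more than 1 line, so the spread between replicates may be technical. The p-values of the pooled comparison measure that spread together with differences between 4 h and 8 h and between the responses of the genotypes.

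The Trp73 probe read 6.01, 5.72, 5.95 and 6.49 (log2 signal) in TAp73-/- cells at hypoxia and 5.29 and 4.75 in untreated TAp73-/- cells. In TAp73+/+ cells it read 4.46, 4.49, 4.86 and 4.41 at hypoxia and 4.72 and 4.79 untreated. It was above background on 4 hypoxia arrays and 1 untreated array of TAp73-/- cells and on 0 arrays of TAp73+/+ cells. Where the probe lies relative to the deleted part of the gene is not given in the sources used here, so it does not check the genotype labels, and Trp73 was not among the shared genes. Genotype enters the comparison only as a block.

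The fibroblast label was set against marker genes. Of the fibroblast markers, Vim, Fn1, Sparc, Thy1 and Pdgfra were above background on 12 arrays, while Col1a1, Col1a2, Dcn, Lum and Postn were above background on 0 arrays and Col3a1 on 1. Of the epithelial markers, Cdh1, Krt18, Cldn3, Esrp1 and Grhl2 were above background on 12 arrays, with Cdh1 between 8.27 and 9.06, Krt18 between 12.03 and 12.92 and Esrp1 between 9.98 and 10.98, while Epcam, Krt5 and Krt14 were above background on 0. Of the leukocyte markers, Ptprc, Adgre1, Tyrobp and Fcer1g were above background on 0 arrays, while Cd14 was on 12 and Csf1r on 8. The muscle markers Myod1 and Acta1 were above background on 0 arrays, but Des and Mylpf were on 12 and Myog on 10. Of the endothelial markers Pecam1 was above background on 0 arrays, Kdr on 7 and Esam on 4, and the neural marker Nes was on 12. The markers therefore go partly against the fibroblast label, and the cells are called TAp73-/- and TAp73+/+ cells here. The summed signal of the 6 tested fibroblast markers was 9170 to 14500 at hypoxia and 5480 to 12400 untreated, and that of the 7 tested epithelial markers was 6760 to 10100 at hypoxia and 6410 to 9760 untreated. The part of these markers in the results was not tested. In bulk RNA, fewer cells of a type and less RNA per cell cannot be told apart.

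Cells sense oxygen through prolyl hydroxylases, which use oxygen to mark the alpha subunits of the hypoxia-inducible factors (HIFs) for destruction by the von Hippel-Lindau ubiquitin ligase. When oxygen is scarce the alpha subunit is stabilised, pairs with the constitutive partner Arnt and binds hypoxia response elements, whose core reads ACGTG or GCGTG. Known targets carry glucose into the cell, speed glycolysis, promote vessel growth and feed back on oxygen sensing.

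At hypoxia 2326 genes (21.4% of those tested) were called, 992 higher (9.12%) and 1334 lower (12.3%). The shared genes were 8.84% of all tested genes for the 961 higher and 12.1% for the 1314 lower. Among all 10873 genes the 4 groups had 1 direction for 42.6%, and for 27.5% of the genes that were not called. The median change over all genes was -0.028 (log2), against 0.47 over the shared higher genes and -0.41 over the shared lower genes, values that the rule itself fixes in sign. Changes were mostly below 2-fold: 81 shared genes were higher and 23 were lower by at least 1 on the log2 scale. In both genotypes the hypoxia arrays and the untreated arrays did not overlap for 667 of the shared higher and 863 of the shared lower genes, and for 16.1% of all tested genes.

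The size of these counts rested on the untreated arrays. Without TAp73+/+ untreated replicate 1 there were 585 shared higher and 732 shared lower genes, and without TAp73-/- untreated replicate 1 there were 836 shared lower genes. A score placed each array along the main pattern by which probes of 1 gene deviate from their mean, taken over genes with several probes. Its sign was set so that untreated arrays averaged higher, and it is not an amount of disagreement. The score was between -0.365 and -0.0934 in TAp73-/- hypoxia arrays and between -0.133 and -0.101 in untreated TAp73-/- arrays. It was between -0.104 and 0.302 in TAp73+/+ hypoxia arrays and 0.386 and 0.59 in untreated TAp73+/+ arrays. Untreated and hypoxia arrays thus lay apart in TAp73+/+ cells, while in TAp73-/- cells the untreated scores lay within the hypoxia range. Scores were mostly higher in TAp73+/+ than in TAp73-/- arrays. With the score as a covariate 1322 of the 2275 shared genes remained called, and with 6 group means and the score together 186 did, while 2123 kept their sign. Of the genes named with values here, 26 lost their call with the score as a covariate, at adjusted p-values between 0.0614 and 0.882. Those that rose were Siah2, Ccn2, Fn1, Mcm3, Ccne2, Atp5pb, Ndufc2, Hoxd13, Rpl7a, Rps6, Hnrnpk, Vim, Tsc22d1, Sik1, Adm2, Ppfibp1 and Zfp532. Those that fell were Txnip, Eloc, Ugp2, Kdm6a, Ern1, Egr3, Insig1, Vcam1 and Mvb12a. Of the 2275 shared genes, 26 were above background on 0 TAp73+/+ arrays and 5 on 0 TAp73-/- arrays, so that their direction in that genotype is read from background. For 141 shared genes the hypoxia or the untreated arrays of at least 1 genotype were all at background. The size of their change there is not exact.

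Changes of the shared genes were, in the median, larger in TAp73+/+ cells. The median change of the 961 higher genes was 0.40 in TAp73-/- cells and 0.55 in TAp73+/+ cells, and that of the 1314 lower genes was -0.36 in TAp73-/- cells and -0.45 in TAp73+/+ cells. Taken alone, the 6 TAp73-/- arrays gave 255 called genes (2.35% of those tested) and the 6 TAp73+/+ arrays gave 1329 (12.2%). The genotypes had no array in common, and 170 genes were called in both with the same sign, which is 66.7% of the TAp73-/- calls and 12.8% of the TAp73+/+ calls, while 1 gene was called with opposite signs. Of the genes called in TAp73-/- cells, 96.9% had the same sign in TAp73+/+ cells, against 71.2% of all genes. Across genes, which are not independent replicates, the responses of the genotypes had a Pearson correlation of 0.68.

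**Figure D1:**
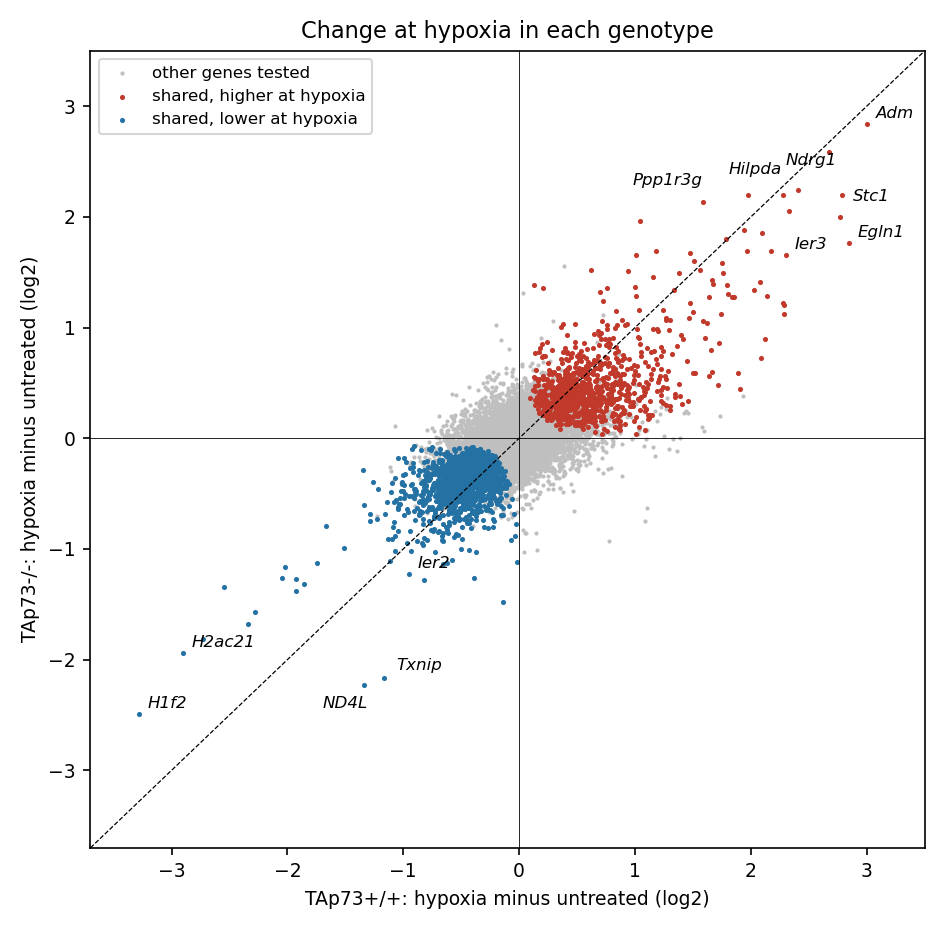
Change at hypoxia (mean of 4 hypoxia arrays minus mean of 2 untreated arrays, log2) in TAp73-/- cells on the vertical axis and TAp73+/+ cells on the horizontal axis, 1 point per gene tested. Shared genes are red (961 higher) and blue (1314 lower), the dashed line marks equal change, and Adm lies farthest out among the rises while H1f2 lies farthest out among the falls.

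The largest shared rises were those of Adm, Smtnl2, Stc1, Vldlr and Ndrg1. Adm encodes adrenomedullin, a secreted peptide that widens blood vessels. Its signal was 7.81, 8.85 and 9.63 (lowest, median and highest of the 8 hypoxia arrays, log2), against 6.40 and 6.59 in untreated TAp73-/- cells and 5.14 and 5.16 in untreated TAp73+/+ cells. Every hypoxia array lay above every untreated array, and the change was 2.92 ± 0.14 (log2 ± SE, adjusted p = 1.92e-08 in limma), or 7.57-fold.

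The stanniocalcins are secreted glycoproteins first known from calcium control in fish. Stc1 read 10.30, 11.14 and 12.01 at hypoxia, against 9.55 and 9.60 in untreated TAp73-/- cells and 7.79 and 7.81 in untreated TAp73+/+ cells. Stc2 read 8.44, 9.52 and 10.26 at hypoxia, against 7.86, 7.83, 7.01 and 6.60 in the untreated arrays. Both genes were higher on all hypoxia arrays, Stc1 by 2.49 ± 0.14 and Stc2 by 2.09 ± 0.14 (log2, adjusted p = 1.03e-07 and 6.74e-07). Stc1 differed by 0.37 between 8 h and 4 h, being higher at 8 h, whereas Stc2 was lower at 8 h by -0.43 (adjusted p = 0.0446 and 0.0186).

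Ndrg1 encodes a cytoplasmic stress-response protein and Hilpda a lipid droplet protein that restrains triglyceride breakdown. Ndrg1 read 11.71, 12.07 and 12.60 at hypoxia, against 10.25, 10.03, 9.51 and 9.34 in the untreated arrays. Hilpda read 12.35, 12.69 and 13.20 at hypoxia, against 10.83, 10.87, 10.10 and 10.14 untreated. Neither gene's hypoxia arrays met the untreated arrays, and the 4 group changes of Hilpda spanned only 2.10 to 2.30 (pooled change 2.24 ± 0.07, adjusted p = 3.74e-10). Ndrg1 rose by 2.33 ± 0.10 (adjusted p = 8.7e-09). Vldlr, a receptor that takes up triglyceride-rich lipoproteins, rose by 2.38 ± 0.16 and all of its 5 probes past the detection filter had the same sign.

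Of the remaining large rises, Ier3, an early-response gene, read 14.41, 14.78 and 14.99 at hypoxia, against 13.11, 13.23, 12.39 and 12.26 untreated. Ak4 encodes a mitochondrial adenylate kinase, and read 9.14, 9.44 and 9.93 at hypoxia, against 7.49, 7.60, 7.51 and 7.58 untreated. Both rose on all 8 hypoxia arrays, by 1.98 ± 0.13 and 1.93 ± 0.12. Ankrd37 and Tmem74b rose by 1.91 ± 0.10 and 2.19 ± 0.16. Smtnl2 was not well above background on any untreated array and was at least 5.11-fold higher at hypoxia, a lower bound set by the dimmest signal well above background (adjusted p = 3.53e-07). Adjusted p-values of the other 4 genes lay between 7.46e-08 and 1.56e-06.

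**Figure D2:**
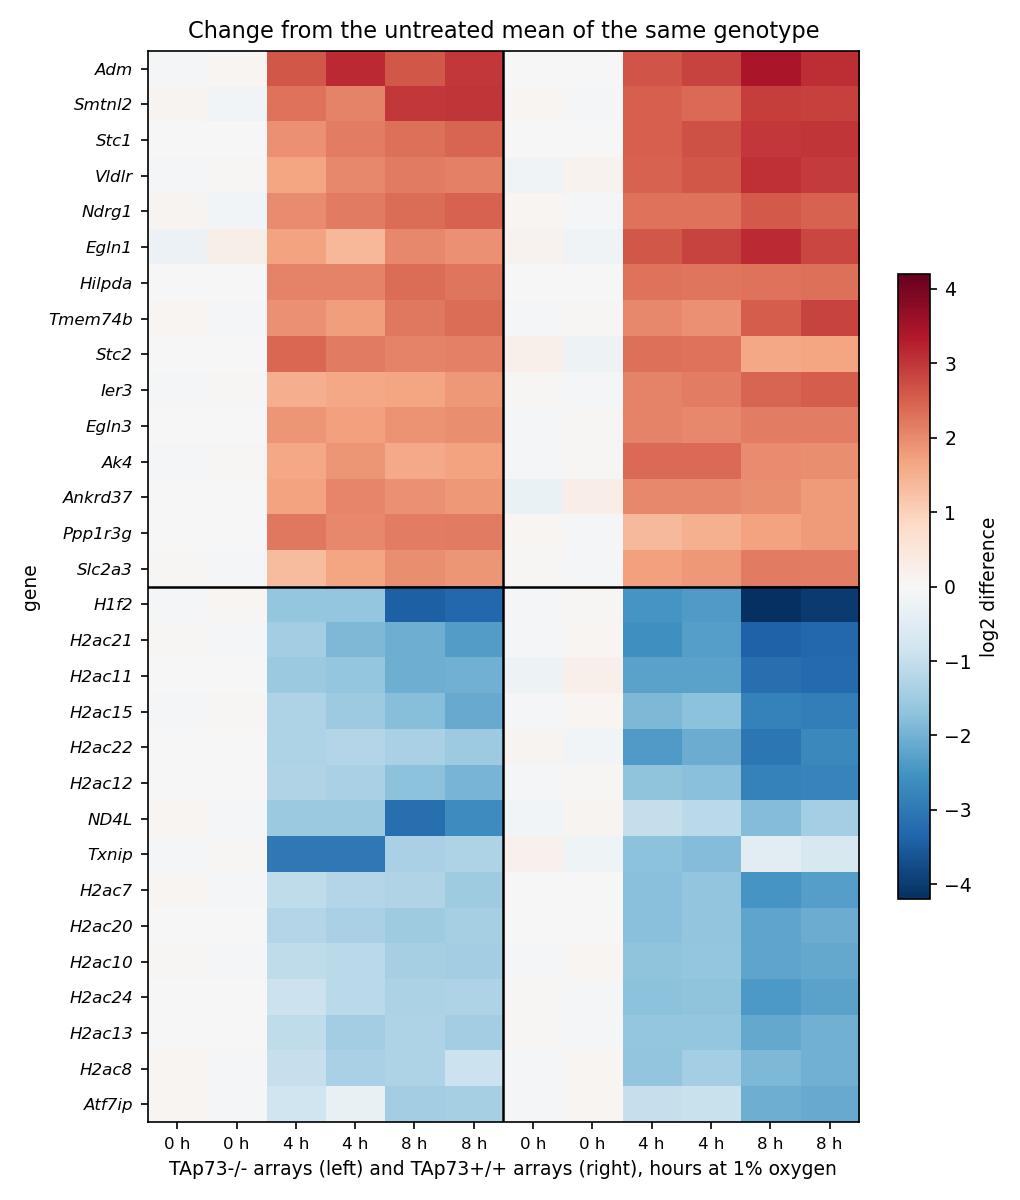
Difference of each array from the untreated mean of the same genotype (colour, log2) for the 15 largest shared rises (top) and 15 largest shared falls (bottom), with TAp73-/- arrays on the left and TAp73+/+ arrays on the right, each at 0 h, 4 h and 8 h. Every row keeps 1 colour over the 8 hypoxia arrays, the H2ac genes and H1f2 are darker at 8 h than at 4 h in TAp73+/+ cells, and Txnip is paler at 8 h than at 4 h in both genotypes.

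Promoter windows from 250 bases before to 50 bases after the gene start (RefSeq, GRCm38.p6) were searched on both strands for the letters ACGTG and GCGTG, the 2 readings of the HIF core, and for the E-box CACGTG, which contains ACGTG. The letters ACGTG occurred in 31.5% of the 1050 windows of shared higher genes and 27.1% of the 1345 windows of shared lower genes, against 25.7% of the windows of all tested genes. GCGTG occurred in 53.2% and 50.9% of the same windows of higher and lower genes, against 50.4% for all tested genes, and CACGTG in 9.9% and 11.4%, against 10.0%. For the 39 windows of a list of 37 canonical hypoxia-inducible genes the shares were 59.0% for ACGTG and 66.7% for GCGTG. Of the 15 largest rises 12 matched the table, and 7 of these held ACGTG upstream of the start. This count is per gene, over any of its windows and upstream bases only. The shares per window above are therefore no background for it, and no like share of all tested genes was taken. These 7 stretches are shown because they belong to the largest rises of the comparison, each with the matched letters in capitals, and for Ak4 with the whole E-box CACGTG in capitals. A match is a description of the letters and not evidence of binding.
Egln1 (chr8:124949288-124949352, minus strand): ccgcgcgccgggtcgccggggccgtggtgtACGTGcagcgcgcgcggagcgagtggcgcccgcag
Hilpda (chr6:29272553-29272617, plus strand): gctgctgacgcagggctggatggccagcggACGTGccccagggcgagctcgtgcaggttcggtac
Ier3 (chr17:35821481-35821545, plus strand): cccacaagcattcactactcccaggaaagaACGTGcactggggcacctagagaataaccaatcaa
Egln3 (chr12:54204069-54204124, minus strand): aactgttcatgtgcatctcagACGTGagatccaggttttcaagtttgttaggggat
Ak4 (chr4:101419460-101419524, plus strand): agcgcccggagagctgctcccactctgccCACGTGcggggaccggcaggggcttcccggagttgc
Ankrd37 (chr8:45999851-45999886, minus strand): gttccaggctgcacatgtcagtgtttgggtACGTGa
Ppp1r3g (chr13:35967838-35967902, plus strand): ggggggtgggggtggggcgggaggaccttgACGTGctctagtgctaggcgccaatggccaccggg
The matched letters began 6 bases before the start in Ankrd37, 38 in Ppp1r3g, 43 in Hilpda, 68 in Egln1, 202 in Ier3, 213 in Ak4 and 229 in Egln3. Of the 7, the Ak4 match was the one that formed the E-box.

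Among the sensing genes themselves, the hydroxylases Egln1 and Egln3 were far higher at hypoxia while the alpha subunit transcript Hif1a, read by its brighter probe, was not called. Of 18 tested members of the oxygen sensing list, 6 were called higher (33.3%) and 2 lower (11.1%), against 9.12% and 12.3% of all genes. Each called member was shared, and the list median was 0.078 (log2) against -0.028 over all genes. Egln1, the main HIF prolyl hydroxylase, read 7.47, 8.05 and 8.52 at hypoxia, against 5.82, 6.32, 5.51 and 5.25 untreated. Egln3, its relative, read 10.59, 10.80 and 11.11 at hypoxia, against 9.17, 9.13, 8.54 and 8.61 untreated. Both rose on all 8 arrays, Egln1 by 2.31 ± 0.20 and Egln3 by 1.98 ± 0.08 (adjusted p = 6.34e-06 and 2.73e-09). The third member of the family went the other way: Egln2 fell by 0.41 on the log2 scale (SE 0.10, adjusted p = 0.0124), a call lost without TAp73-/- untreated replicate 1 (adjusted p = 0.0573).

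Vhl, the substrate receptor of the ligase that destroys HIF alpha subunits, rose by 0.61 (adjusted p = 0.00235). Cited2, which competes with HIF alpha subunits for the coactivators p300 and CBP, rose by 0.78 ± 0.10 (adjusted p = 0.000204). Siah2, a ubiquitin ligase that targets prolyl hydroxylases, rose by 0.65 ± 0.19 (adjusted p = 0.0265). With the probe score in the fit its change was 0.24 and not called (adjusted p = 0.408). Its call was lost without any 1 of 3 untreated arrays, with an adjusted p up to 0.0863 without TAp73-/- untreated replicate 2. Hif3a, a further alpha subunit, rose by 1.07 ± 0.21 (adjusted p = 0.00362), but its other probe had the opposite sign. Eloc, an elongin of the same ligase, was lower by 0.22, at an adjusted p of 0.0457 that passed the threshold in only 3 of 12 fits that each left out 1 array (up to 0.135 without TAp73-/- untreated replicate 1).

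Hif1a read 6.05, 7.02 and 7.79 at hypoxia, against 7.19 and 7.17 in untreated TAp73-/- cells and 5.43 and 6.07 in untreated TAp73+/+ cells. These values are of the brighter of 2 probes past the detection filter. Its change of 0.54 ± 0.31 was not called (adjusted p = 0.223), and the group differences were 0.49 and -0.51 in TAp73-/- cells at 4 h and 8 h and 1.59 and 0.60 in TAp73+/+ cells. Hif1a at 8 h had fallen by 1.00 relative to 4 h (adjusted p = 0.00968), and once the probe score entered the fit its hypoxia change was -0.45 (adjusted p = 0.043). The other Hif1a probe, above background on 7 of 12 arrays, read 5.04, 5.91 and 6.89 at hypoxia, against 4.39, 4.38, 4.42 and 4.48 untreated, a difference of 1.46, and all of its hypoxia arrays lay above the untreated ones. Arnt differed by 0.14 ± 0.11 (adjusted p = 0.414), and Epas1, the other main alpha subunit, was not above background on any array.

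The canonical hypoxia-inducible list held 37 genes, of which 34 were tested and 4 passed the detection filter only through hypoxia arrays. Of the 34, 29 were called higher (85.3%) and 0 lower, against 9.12% and 12.3% of all genes. All 29 were shared, and the median change was 1.21 (log2) against -0.028 over all genes. Between 26 and 29 were called higher when 1 array at a time was left out, 29 with the probe score in the fit and 20 with 6 group means and the score. Vegfa, which encodes the vascular endothelial growth factor, read 11.24, 11.44 and 11.52 at hypoxia, against 9.84, 9.85, 9.78 and 9.65 untreated. Its arrays lay in 2 narrow bands that did not overlap, and it rose by 1.63 ± 0.08 (adjusted p = 1.83e-08). The 5 members that were not called, picked out after their values were seen, were Zfp395 at 0.40, Tfrc at 0.089, Pfkfb4 at 0.021, Car12 at -0.058 and Car9 at -0.16, with adjusted p-values between 0.131 and 0.927. Car9, a membrane carbonic anhydrase, is widely used as a hypoxia marker.

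**Figure D3:**
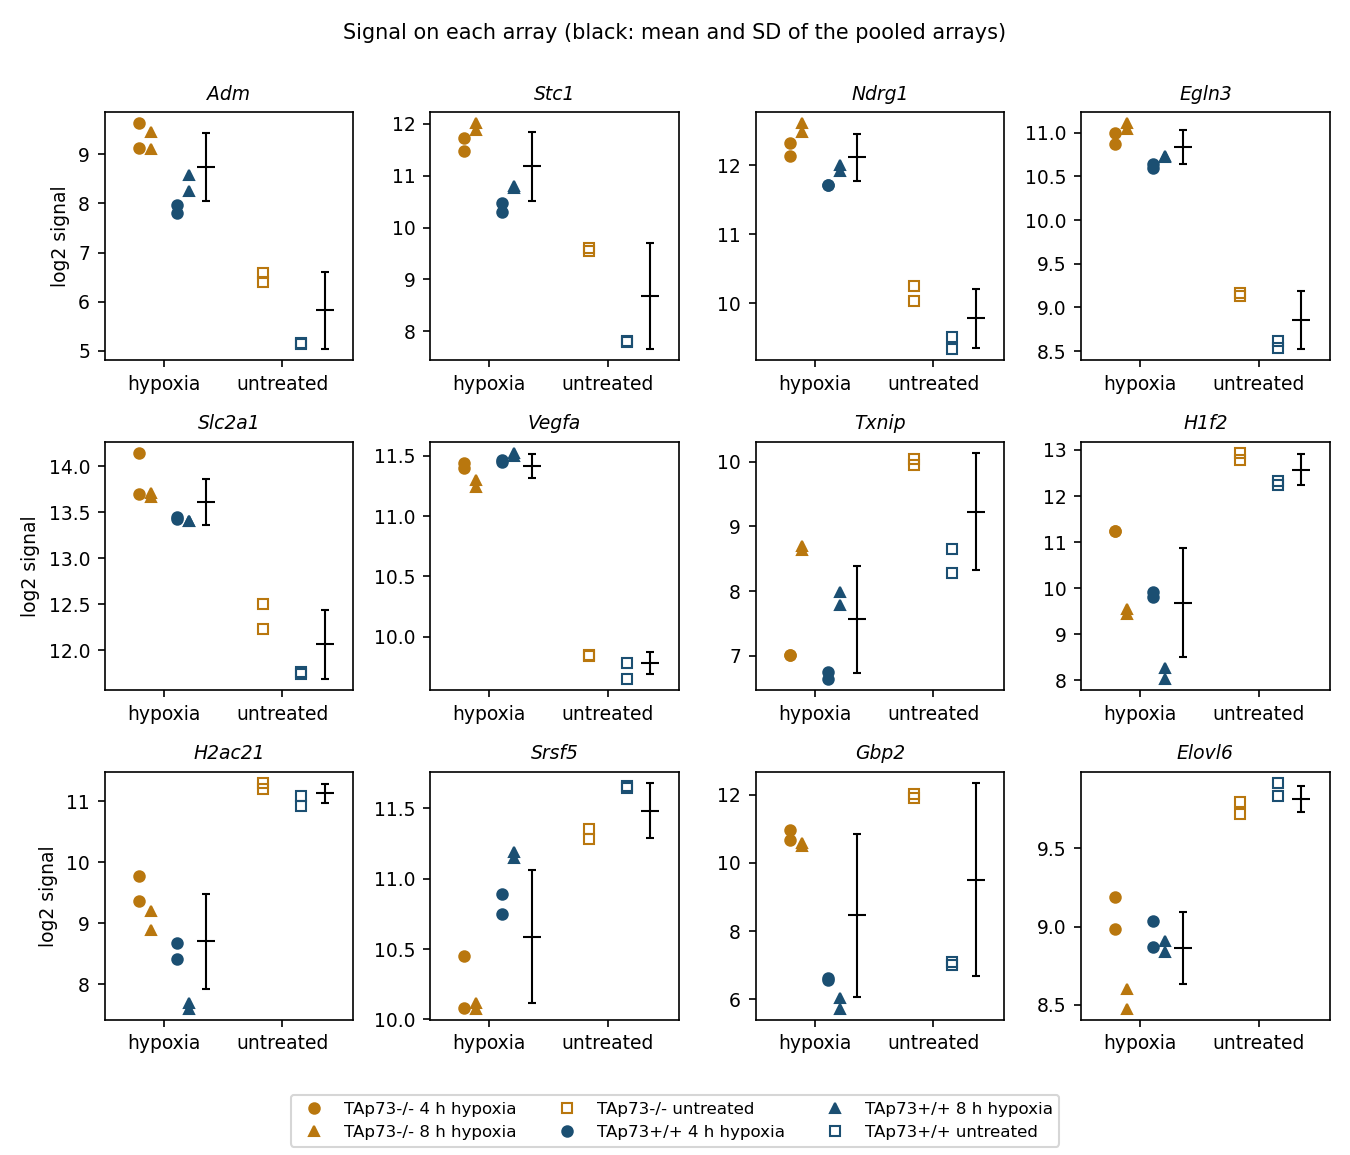
Signal on each array (log2) for 12 shared genes, with hypoxia arrays on the left of each panel (circles 4 h, triangles 8 h) and untreated arrays on the right (open squares). TAp73-/- arrays are brown and TAp73+/+ arrays blue, black bars give the mean and SD of the 8 hypoxia or 4 untreated arrays, and the 2 bands of Vegfa do not overlap whereas those of Txnip and Gbp2 do.

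Glucose handling moved upward at hypoxia over most of the pathway. Of 20 tested genes of glycolysis and glucose uptake, 16 were called higher (80%) and 0 lower, against 9.12% and 12.3% of all genes. All 16 were shared, and the median change was 0.56. Among the 20, 1 member passed the detection filter only through hypoxia arrays. The glucose transporter Slc2a1 read 13.41, 13.56 and 14.14 at hypoxia, against 12.51, 12.23, 11.74 and 11.77 untreated, and the transporter Slc2a3 read 12.77, 13.25 and 13.56, against 11.51, 11.40, 11.42 and 11.35. Each was higher on all hypoxia arrays, by 1.55 ± 0.10 and 1.83 ± 0.13 (adjusted p = 3.38e-07 and 6.74e-07). Pfkp, a phosphofructokinase of the committed step, rose by 1.75 ± 0.19, with 1.00 and 1.42 in TAp73-/- cells at 4 h and 8 h and 2.29 and 2.28 in TAp73+/+ cells. Slc16a3, which exports lactate, rose by 1.70 ± 0.26, and Pdk1, which restrains pyruvate entry into mitochondria, rose by 1.68 ± 0.17. Both were higher at 8 h than at 4 h, by 0.75 and 0.53 (adjusted p = 0.0323 and 0.0161). Slc16a3 was above background on 1 of 2 untreated TAp73+/+ arrays, so the size of its rise there is not exact. The number called higher was between 13 and 16 with 1 array left out.

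Regulatory subunits that target protein phosphatase 1 to glycogen rose together with glycogen synthase. Ppp1r3b read 8.91, 9.08 and 9.43 at hypoxia, against 7.61, 7.77, 7.50 and 7.43 untreated, and rose by 1.54 ± 0.10. Ppp1r3c rose by 1.53 ± 0.11, and Ppp1r3g rose by 1.86 ± 0.11, while the other Ppp1r3g probe was at 0.18. Ppp1r3g was above background on both untreated TAp73-/- arrays, where the change was 2.13, but on 0 untreated TAp73+/+ arrays, so the size of its rise in TAp73+/+ cells is not measured exactly. Adjusted p-values of these subunits lay between 2.17e-07 and 8.24e-07. Pgm1, which interconverts glucose phosphates on the way to glycogen, rose by 1.14 ± 0.13 and Gys1, the muscle-type glycogen synthase, by 0.96 ± 0.14. Gys1 was above background on 1 of 2 untreated TAp73+/+ arrays, so the size of its rise there is not exact. In the list of glycogen and pH genes 4 of 12 tested members were called higher (33.3%) and 1 lower (8.33%). The shares of all genes were 9.12% and 12.3%, and the list median was 0.26. The lower member, Ugp2, makes the UDP-glucose that the synthase uses, and differed by -0.21 ± 0.07 (adjusted p = 0.0386). That call passed in only 2 of the 12 fits with 1 array left out, up to an adjusted p of 0.119 without TAp73-/- untreated replicate 2.

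Other oxygen-dependent enzymes rose in part. Of 13 tested genes of collagen hydroxylation and crosslinking, 4 were called higher (30.8%) and 0 lower, against 9.12% and 12.3% of all genes. The list median was 0.13. P4ha1 and P4ha2, catalytic subunits of collagen prolyl hydroxylase, rose by 1.75 ± 0.19 and 1.55 ± 0.16, and the lysyl hydroxylase Plod2 by 0.89 ± 0.19. A further Plod2 probe had the opposite sign, at -0.07, and further P4ha2 probes were at 1.45 and 0.27. Lox, a lysyl oxidase that crosslinks collagen, passed the detection filter only through the 4 TAp73-/- hypoxia arrays, with a pooled bound of at least 1.11-fold higher (adjusted p = 0.0289, and up to 0.107 without TAp73-/- untreated replicate 1). It was above background on 0 TAp73+/+ arrays, so no rise was measured in that genotype. The collagens Col1a1 and Col1a2, substrates of these enzymes, were above background on 0 arrays. Among 14 tested extracellular matrix genes, 2 of which passed the detection filter only through hypoxia arrays, 2 were called higher (14.3%, against 9.12% of all genes) and 0 lower, with a median of -0.10. These were the fibronectin gene Fn1 at 0.57 ± 0.15 and the fibulin gene Fbln2 at 0.45 ± 0.08, and the call of Fn1 was lost without either untreated TAp73+/+ array, up to an adjusted p of 0.095 without replicate 1.

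Jumonji-class enzymes need oxygen, and many but not all of them remove methyl groups from histones. Of 19 tested, 5 were called higher (26.3%) and 3 lower (15.8%), against 9.12% and 12.3% of all genes. The list median was 0.14, and 1 tested member passed the detection filter only through hypoxia arrays. Kdm3a, an H3K9 demethylase, read 10.69, 11.09 and 11.55 at hypoxia, against 9.70, 9.80, 10.03 and 10.13 untreated, and rose by 1.17 ± 0.09 (adjusted p = 2.76e-06). Kdm6b, which acts on H3K27, rose by 0.92 ± 0.11, Jmjd6 by 0.83 ± 0.09, Kdm4b by 0.82 ± 0.08 and Kdm7a by 0.82 ± 0.11. Kdm8 fell by 0.52, Riox1 fell by 0.32 and Kdm6a fell by 0.28 on the log2 scale, the last with an adjusted p of 0.0186 that became 0.0745 without TAp73+/+ untreated replicate 2. The other Kdm8 probe was at -0.07, and further Kdm6a probes were at -0.04 and -0.27. The members of this class thus did not move in 1 direction, and Kdm6b and Kdm6a, which share a substrate, were called in opposite directions. With the probe score in the fit Kdm6a was not called (adjusted p = 0.0877).

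Several clock genes rose. Of 15 tested circadian genes 7 were called higher (46.7%) and 0 lower, against 9.12% and 12.3% of all genes. All 7 were shared, and the list median was 0.39. Rora, a nuclear receptor that activates the core clock gene Arntl, read 8.82, 9.11 and 9.68 at hypoxia, against 6.97, 7.22, 7.65 and 7.64 untreated. Ciart, a repressor of the Clock complex, read 8.56, 8.72 and 9.09, against 7.27, 7.40, 6.79 and 6.70 untreated. Both lay above the untreated range on all hypoxia arrays, with changes of 1.79 ± 0.11 and 1.74 ± 0.14 (adjusted p = 2.17e-07 and 3.13e-06). Bhlhe40, an E-box repressor and known HIF target, rose by 1.33 ± 0.11, Dbp by 0.91 ± 0.14 and Per1 by 0.50 ± 0.12. Per1 was no longer called without TAp73+/+ untreated replicate 2 (adjusted p = 0.0541). The core activators Clock and Arntl had differences of 0.019 and 0.054 (adjusted p = 0.883 and 0.7).

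Vessel growth factors other than Vegfa were called in part. Of 27 tested angiogenic factors and regulators 6 were called higher (22.2%) and 1 lower (3.7%), against 9.12% and 12.3% of all genes. The list median was 0.12. Pgf, the placental growth factor, was not well above background on any untreated array and was at least 2.18-fold higher at hypoxia (adjusted p = 0.000556), with a further 0.85 between 8 h and 4 h. Ccn2, a matricellular growth factor, rose by 0.49 ± 0.12 and Pdgfa by 0.42 ± 0.09. The call of Ccn2 was lost without TAp73+/+ untreated replicate 1 (adjusted p = 0.0541). Nrp1, a coreceptor for vascular endothelial growth factor, fell by 0.44 on the log2 scale (SE 0.07, adjusted p = 0.00146).

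Of 17 tested genes of mitophagy and autophagy 3 were called higher and 3 lower (17.6% each), against 9.12% and 12.3% of all genes, with a median of 0.023. Bnip3l, a receptor that tags mitochondria for removal, rose by 0.77 ± 0.13 (adjusted p = 0.00115). Its relative Bnip3 was above background on the 4 TAp73-/- hypoxia arrays and on 0 others, with a pooled bound of at least 1.04-fold higher (adjusted p = 0.00935), so that no rise was measured in TAp73+/+ cells. Wipi1 rose by 0.29 ± 0.08. The autophagosome genes Gabarapl2, Map1lc3b and Atg7 fell by 0.54, fell by 0.46 and fell by 0.41 on the log2 scale. Map1lc3b lost its call without any 1 of 3 untreated arrays (adjusted p up to 0.0844 without TAp73+/+ untreated replicate 1), and without TAp73-/- untreated replicate 1 that of Wipi1 was 0.0604.

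Among stress and early-response genes many calls leaned on the untreated TAp73+/+ arrays. Of 24 tested immediate early genes 15 were called higher (62.5%), 12 of them shared, and 3 lower (12.5%), with a median of 0.38. The shares of all genes were 9.12% and 12.3%. The number called higher was 9 without TAp73+/+ untreated replicate 1 or without replicate 2. Maff, a small Maf transcription factor, read 7.97, 8.18 and 8.24 at hypoxia, against 7.09, 7.14, 7.35 and 7.06 untreated, and rose by 1.00 ± 0.07 with group changes between 0.96 and 1.02. Dusp1, a phosphatase that switches off MAP kinases, rose by 1.07 ± 0.17, with 0.55 and 0.85 in TAp73-/- cells and 1.11 and 1.79 in TAp73+/+ cells at 4 h and 8 h. Fosl2, an AP-1 subunit, rose by 0.98 ± 0.09. Ier2, an early-response gene, read 4.74, 5.19 and 5.75 at hypoxia, against 6.04, 6.42, 6.39 and 6.54 untreated, and fell by 1.09 on the log2 scale (SE 0.12, adjusted p = 7.82e-05). It was above background on 2 of 4 TAp73-/- hypoxia arrays, so the size of its fall there is not exact. The other lower members were Dusp6 at -0.35 and Egr3 at -0.41. Egr3 had a probe of opposite sign and was called in only 3 of 12 fits with 1 array left out (up to an adjusted p of 0.139 without TAp73+/+ untreated replicate 2), and the mean of all Dusp6 probes was 0.021. Without TAp73-/- untreated replicate 1 the adjusted p of Dusp6 was 0.0704.

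Of 29 tested genes that answer unfolded protein or amino acid shortage 11 were called higher (37.9%) and 1 lower (3.45%). The shares of all genes were 9.12% and 12.3%. Of the 11 higher genes 10 were shared, and the list median was 0.29. The number called higher was 5 without TAp73+/+ untreated replicate 1. Trib3, a pseudokinase target of this response, read 9.19, 9.86 and 10.88 at hypoxia, against 9.78 and 9.54 in untreated TAp73-/- cells and 7.22 and 7.31 in untreated TAp73+/+ cells. The pooled values overlapped, while within each genotype every hypoxia array was higher (1.51 ± 0.21, adjusted p = 0.000455). Ddit3, which encodes the stress factor CHOP, rose by 1.17 ± 0.30 and Atf3 by 0.90 ± 0.27. Without TAp73+/+ untreated replicate 1 their adjusted p-values were 0.0614 and 0.126, and Atf3 lost its call without replicate 2 also. Ern1, an endoplasmic reticulum stress sensor, differed by -0.27 ± 0.09 (adjusted p = 0.0486), a call kept in only 2 of 12 fits with 1 array left out (up to 0.192 without TAp73+/+ untreated replicate 1).

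Of 23 tested inflammatory cytokines and NF-kappaB targets 6 were called higher (26.1%) and 1 lower (4.35%), against 9.12% and 12.3% of all genes. The list median was 0.17, and 1 tested member passed the detection filter only through hypoxia arrays. With 1 array left out between 1 and 6 were called higher, the 1 being without TAp73+/+ untreated replicate 1. Tnfaip3, a ubiquitin-editing brake on NF-kappaB, read 6.85, 7.27 and 7.68 at hypoxia, against 6.35, 6.24, 5.41 and 5.63 untreated, and rose by 1.32 ± 0.11 (adjusted p = 3.73e-06). The inhibitor Nfkbia rose by 0.59 ± 0.14 (0.0523 as adjusted p without that array), while its other probe was at 0.12. The cytokine Il11 and the chemokine Cxcl2 had changes of 1.01 ± 0.32 and 0.97 ± 0.29 (adjusted p = 0.04 and 0.0314). Leaving out 1 array lost the call of Il11 in 8 of 12 fits and that of Cxcl2 in 6, hypoxia arrays included, with adjusted p-values up to 0.13 and 0.0865 without TAp73+/+ untreated replicate 1. Both were higher at 8 h than at 4 h, by 1.28 and 1.21 (adjusted p = 0.00019 and 5.81e-06). Vcam1, an adhesion molecule, fell by 0.57 on the log2 scale (adjusted p = 0.0363), a call lost in 6 of 12 fits with 1 array left out (up to 0.122 without TAp73+/+ untreated replicate 1). It was above background on 2 of 4 TAp73+/+ hypoxia arrays, so the size of its fall there is not exact.

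Of 30 tested p53-family targets 9 were called higher (30%) and 1 lower (3.33%), against 9.12% and 12.3% of all genes. Each called member was shared, and the list median was 0.12. The growth arrest genes Gadd45b and Gadd45a rose by 0.77 ± 0.09 and 0.74 ± 0.15, and Pmaip1, which encodes the cell death protein NOXA, by 0.55 ± 0.09. Aen, an exonuclease of the same group, fell by 0.47 on the log2 scale (SE 0.11, adjusted p = 0.0104). The number called higher was between 6 and 9 with 1 array left out.

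**Figure D4:**
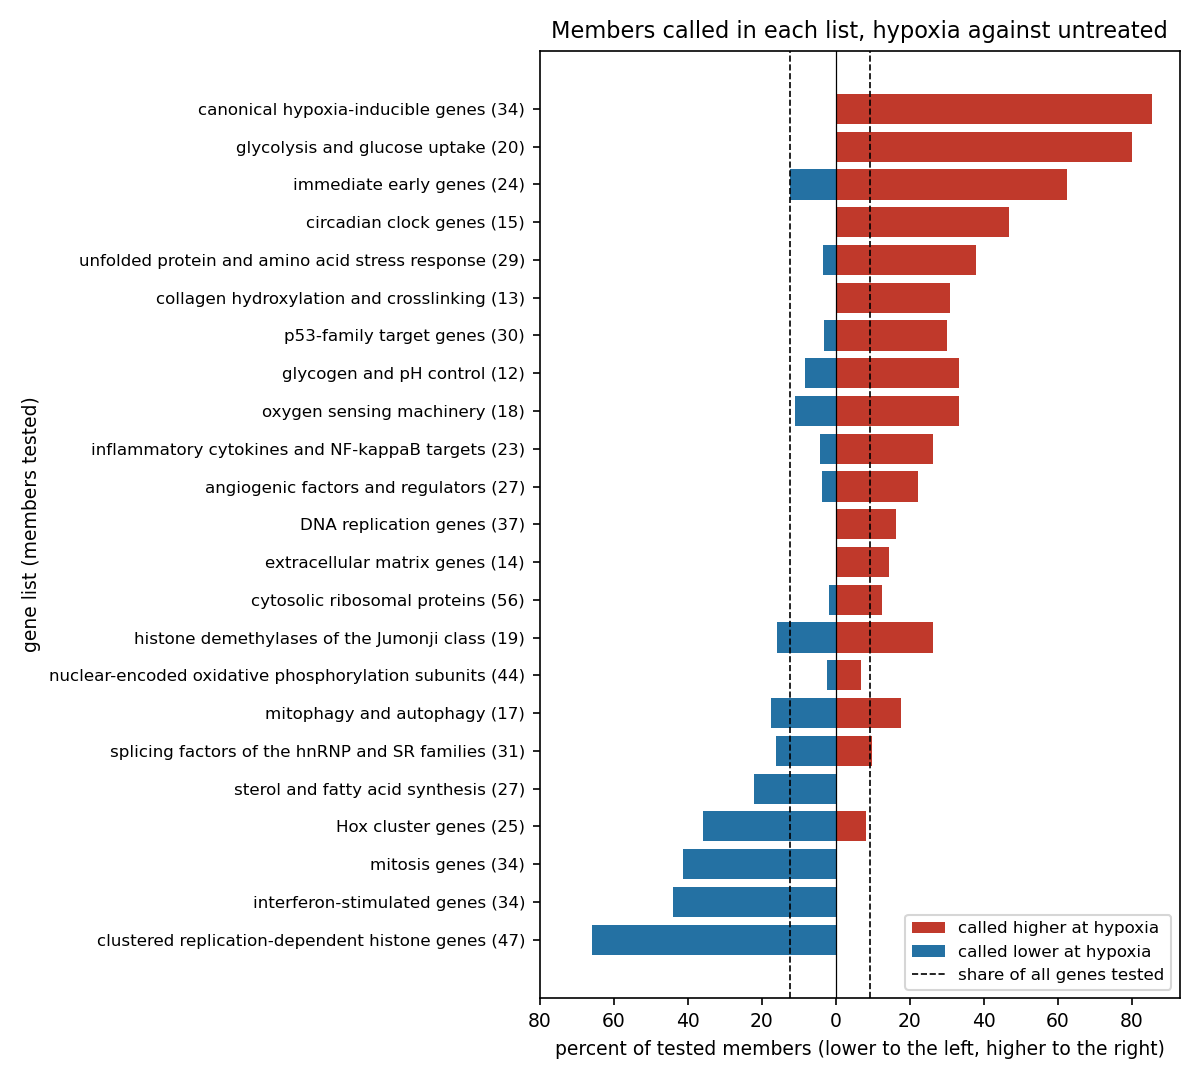
Percent of the tested members of each gene list that were called higher (red, to the right) or lower (blue, to the left) at hypoxia, with the number tested in brackets. The dashed lines mark the shares of all 10873 genes, 9.12% higher and 12.3% lower. Canonical hypoxia-inducible genes lie at the top with 85.3% higher and clustered histone genes at the bottom with 66% lower.

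The largest falls were transcripts of the replication-dependent histone clusters, which package newly made DNA and whose messages normally end in a stem-loop without a poly(A) tail. Of the 15 largest falls 12 were histone genes, H1f2 and 11 H2ac genes. H1f2, a linker histone, read 8.04, 9.67 and 11.24 at hypoxia, against 12.79, 12.93, 12.24 and 12.33 untreated. It fell by 2.88 on the log2 scale (SE 0.42, adjusted p = 0.00058), with -1.62 and -3.37 in TAp73-/- cells at 4 h and 8 h and -2.43 and -4.13 in TAp73+/+ cells. No hypoxia array reached the untreated range, and the fall was deeper at 8 h than at 4 h in both genotypes (8 h minus 4 h -1.72, adjusted p = 4.83e-05).

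Among the core histones of the H2A family, H2ac21 read 7.61, 8.79 and 9.78 at hypoxia, against 11.29, 11.20, 10.92 and 11.08 untreated. H2ac11 read 7.81, 9.04 and 9.73, against 11.29, 11.31, 10.84 and 11.27 untreated. Both fell well outside the untreated spread, by 2.42 and 2.27 on the log2 scale (SE 0.24 and 0.23, adjusted p = 2.07e-05 and 3.18e-05). H2ac15, H2ac22 and H2ac12 changed by -2.01, -1.95 and -1.92, and H2ac7, H2ac20, H2ac10, H2ac24, H2ac13 and H2ac8 by between -1.66 and -1.44, with adjusted p-values from 2.02e-06 to 0.000143. The coding sequences of these genes are nearly identical in part, so a probe may read several of them and the genes are not independent members.

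Over the whole set of clustered replication-dependent histone genes, 47 of 55 were tested, and 31 were called lower (66%) and 0 higher. The shares of all genes were 12.3% and 9.12%. All 31 were shared, and the list median was -0.62. The counts of lower members were 2 of 2 for H1f, 11 of 15 for H2ac, 4 of 9 for H2bc, 8 of 9 for H3c and 6 of 12 for H4c, with medians of -1.93, -1.60, -0.76, -0.53 and -0.50. Genes of chromosome 13 and chromosome 3 had 25 of 39 and 6 of 8 lower members. The list median deepened with time, being -0.32 at 4 h and -0.92 at 8 h in TAp73-/- cells and -0.41 at 4 h and -1.12 at 8 h in TAp73+/+ cells. Once the probe score entered the fit 42 were called lower, and with 1 array left out between 22 and 33.

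Among the H2bc genes the group medians were -0.15 at 4 h and -1.22 at 8 h in TAp73-/- cells and -0.33 and -1.62 in TAp73+/+ cells, and 8 of 9 were called lower at 8 h than at 4 h. The H2ac medians were -1.17 and -1.38 in TAp73-/- cells and -1.69 and -2.19 in TAp73+/+ cells, and 6 of 15 were called lower at 8 h than at 4 h. Of all 10873 tested genes 872 were called lower at 8 h than at 4 h. H2bc4 read 8.39, 9.76 and 10.89 at hypoxia, against 11.02, 10.94, 10.68 and 11.11 untreated, with 8 h minus 4 h at -1.45. Its pooled change of -1.23 ± 0.37 (adjusted p = 0.0326) was no longer called without any 1 of 5 arrays, up to 0.116 without TAp73+/+ untreated replicate 2. H2bc9, H2bc7, H2bc6 and H2bc14 were not called in the pooled comparison (-0.60 to -0.96, adjusted p = 0.0575 to 0.268), while their 8 h minus 4 h differences were -1.47, -1.42, -1.40 and -1.33. No test compared the timing of the families with each other.

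**Figure D5:**
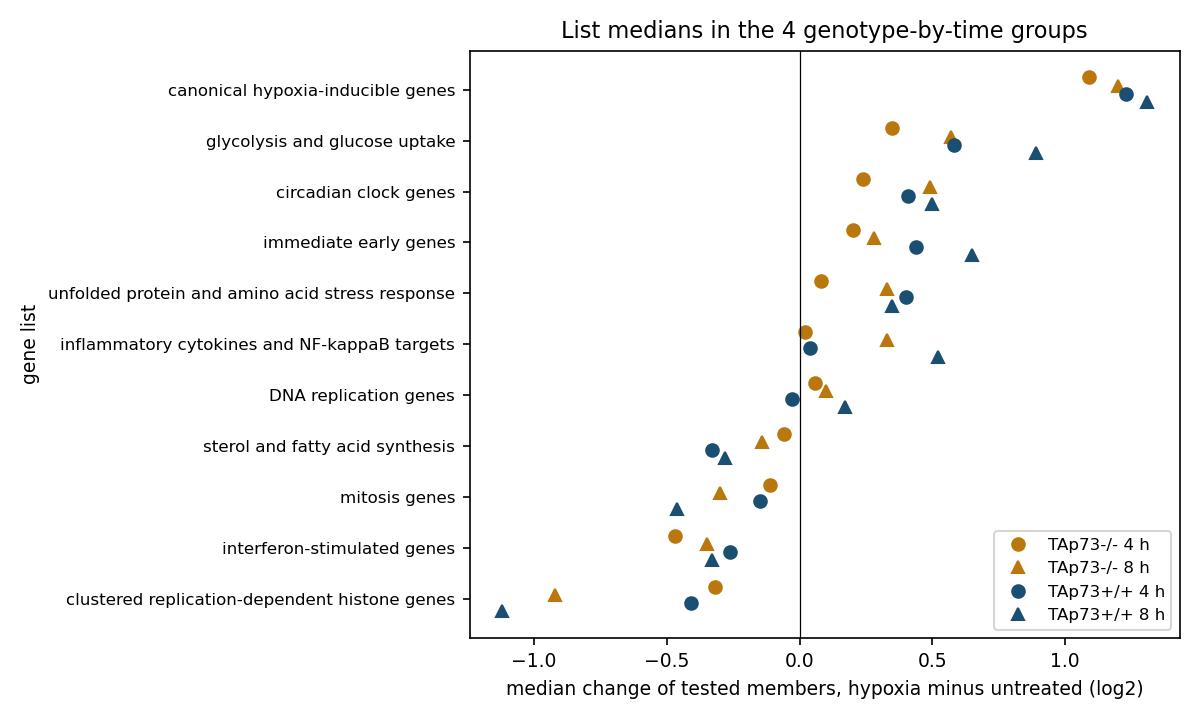
Median change of the tested members of 11 gene lists (log2, hypoxia minus untreated of the same genotype) in TAp73-/- cells (brown) and TAp73+/+ cells (blue) at 4 h (circles) and 8 h (triangles). Canonical hypoxia-inducible genes lie between 1.09 and 1.31 in all 4 groups, and clustered histone genes lie at -0.32 and -0.41 at 4 h and at -0.92 and -1.12 at 8 h.

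Genes that carry out cell division were called lower in part. Of 34 tested mitosis genes 14 were called lower (41.2%) and 0 higher, against 12.3% and 9.12% of all genes. All 14 were shared, and the list median was -0.30. Plk1, a kinase that drives entry into mitosis, read 10.71, 11.02 and 11.39 at hypoxia, against 11.79, 11.69, 11.66 and 11.80 untreated, and fell by 0.71 on the log2 scale (SE 0.12, adjusted p = 0.00108). The kinetochore gene Cenpf fell by 0.67, the cyclin Ccnf fell by 0.66 and Cdc20, an activator of the anaphase-promoting complex, fell by 0.61. A further Cdc20 probe had the opposite sign, at 0.43. Plk1, Cenpf and Cdc20 were lower at 8 h than at 4 h, by -0.39, -0.52 and -0.64. The mitosis genes called lower numbered 6 without TAp73+/+ untreated replicate 1 and 8 without replicate 2, and Cdc20 lost its call without any 1 of 3 untreated arrays (adjusted p up to 0.0794 without TAp73+/+ untreated replicate 2).

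DNA replication genes had 6 of 37 tested members called higher (16.2%) and 0 lower, against 9.12% and 12.3% of all genes. Of the 6, 5 were shared, and the list median was 0.083. Cdt1, which licenses replication origins, read 11.80, 11.91 and 12.20 at hypoxia, against 11.42, 11.49, 11.26 and 11.31 untreated, and rose by 0.59 ± 0.07 (adjusted p = 0.000117). Mcm3, a helicase subunit, rose by 0.67 ± 0.18 and the transcription factor E2f1 by 0.45 ± 0.14. Ccne2, the sixth member called, did not have 1 direction, with -0.11 in TAp73-/- cells at 8 h. With 1 array left out between 1 and 7 replication genes were called higher, the 1 being without TAp73+/+ untreated replicate 1, where the adjusted p-values of Mcm3 and Ccne2 were 0.0708 and 0.194. The call of Ccne2 was lost in 9 of 12 such fits. E2f1 was called in only 5 of 12 fits with 1 array left out, up to 0.122 without TAp73+/+ untreated replicate 2. With 6 group means and the probe score the changes of Mcm3 and Ccne2 were -0.014 and -0.33.

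Txnip, which binds thioredoxin and restrains glucose uptake, had its deepest fall at 4 h. In TAp73-/- cells it read 7.01 and 7.0 after 4 h and 8.63 and 8.69 after 8 h, and in TAp73+/+ cells 6.75 and 6.64 after 4 h and 7.98 and 7.79 after 8 h, against 9.95 and 10.05 in untreated TAp73-/- cells and 8.65 and 8.27 in untreated TAp73+/+ cells. Within each genotype the arrays did not overlap, and the changes were -3.0 and -1.34 in TAp73-/- cells at 4 h and 8 h and -1.76 and -0.57 in TAp73+/+ cells. The pooled change was -1.67 ± 0.37 (adjusted p = 0.00761), and the 8 h arrays were higher than the 4 h arrays by 1.42 (adjusted p = 0.000603). Once the probe score entered the fit, the pooled change was -0.97 and no longer called (adjusted p = 0.123).

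Transcripts of the mitochondrial genome were called lower in part. ND4L, a subunit of respiratory complex I encoded in the mitochondrion, read 4.88, 6.59 and 7.50 at hypoxia, against 8.11, 7.98, 8.37 and 8.63 untreated. It fell by 1.78 on the log2 scale (SE 0.29, adjusted p = 0.00108). ND4L was above background on 3 of 4 TAp73-/- hypoxia arrays, so the size of its fall there is not exact. Of 7 tested mitochondrial transcripts 3 were called lower and 0 higher, all complex I subunits (ND4L, ND4 and ND1). The shares of all genes were 12.3% lower and 9.12% higher. Changes of the 7 ranged from -1.78 to 0.35, with a median of -0.40. Group medians were -0.45 and -1.15 in TAp73-/- cells at 4 h and 8 h and -0.27 and -0.19 in TAp73+/+ cells. Of 44 tested nuclear subunits of oxidative phosphorylation 3 were called higher (6.82%) and 1 lower (2.27%), against 9.12% and 12.3% of all genes, with a median of 0.089. Atp5pb rose by 0.64 ± 0.19 and Ndufc2 by 0.45 ± 0.13, and Cycs, the electron carrier cytochrome c, fell by 0.43 on the log2 scale. A further Atp5pb probe had the opposite sign, at -0.13, and the other Ndufc2 probe was at 0.03. Without TAp73+/+ untreated replicate 1, or without TAp73-/- untreated replicate 1, 0 of the 44 were called higher (adjusted p up to 0.0995 for Atp5pb and 0.0925 for Ndufc2 without the first). The adjusted p of Cycs was 0.0577 without TAp73+/+ untreated replicate 2. With 6 group means and the probe score Atp5pb and Ndufc2 changed by -0.35 and -0.16.

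Interferon-stimulated genes, which serve antiviral defence, were called lower in part. Of 34 tested 15 were called lower (44.1%), 14 of them shared, while 0 were called higher and 19 were not called. The median was -0.33, and the shares of all genes were 12.3% lower and 9.12% higher. Gbp2, a guanylate-binding protein, was 11.89 and 12.03 in untreated TAp73-/- cells and 7.01 and 7.10 in untreated TAp73+/+ cells, while the hypoxia arrays ranged from 5.73 to 10.98. Within each genotype all hypoxia arrays were lower, by -1.13 and -1.42 in TAp73-/- cells at 4 h and 8 h and by -0.46 and -1.18 in TAp73+/+ cells (pooled change -1.05 ± 0.16, adjusted p = 0.000913). The other Gbp2 probe was at -0.27. Cmpk2, a mitochondrial nucleotide kinase, Igtp, an immunity-related GTPase, and Gbp7 changed by -0.89 ± 0.11, -0.88 ± 0.11 and -0.84 ± 0.13 (adjusted p = 0.000216, 0.000126 and 0.00067). Gbp7 was above background on 1 of 4 TAp73+/+ hypoxia arrays and Cmpk2 on 3, so that their signal there lay partly below background and the size of the fall is not exact. Between 10 and 16 were called lower with 1 array left out, the 10 being without either untreated TAp73-/- array.

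Of 27 tested genes of sterol and fatty acid synthesis 6 were called lower (22.2%) and 0 higher, against 12.3% and 9.12% of all genes. All 6 were shared, and the list median was -0.14. Elovl6, which elongates long-chain fatty acids, read 8.48, 8.89 and 9.19 at hypoxia, against 9.80, 9.72, 9.92 and 9.84 untreated, and fell by 0.96 on the log2 scale (SE 0.12, adjusted p = 0.000126). Insig1, a brake on sterol synthesis, fell by 0.62 and the isoprenoid enzyme Idi1 fell by 0.52. Further Insig1 probes were near no change, at -0.07 and -0.06. Once the probe score entered the fit Insig1 was at -0.38 and not called (adjusted p = 0.11). Between 6 and 7 were called lower with 1 array left out.

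The Hox genes, which specify position along the body axis, had 9 of 25 tested members called lower (36%) and 2 higher (8%). The shares of all genes were 12.3% and 9.12%. Each called member was shared, and the list median was -0.24. Hoxb3 read 5.03, 5.61 and 5.98 at hypoxia, against 6.0, 6.14, 6.73 and 6.28 untreated, and fell by 0.77 on the log2 scale (SE 0.13, adjusted p = 0.00125). It was above background on 3 of 4 TAp73-/- hypoxia arrays, so the size of its fall there is not exact. Hoxa7 fell by 0.60, and the other Hoxb3 probe was at -0.18. The 2 higher members, Hoxd13 at 0.66 and Hoxb9 at 0.38, were not called without TAp73+/+ untreated replicate 1 or without replicate 2 (adjusted p up to 0.0873 and 0.13, both without replicate 2). Hoxb9 lost its call in 6 of 12 such fits, hypoxia arrays included. Leaving out TAp73+/+ untreated replicate 1 left 4 Hox genes called lower.

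Of 31 tested splicing factors of the hnRNP and SR families 3 were called higher (9.68%) and 5 lower (16.1%), near the 9.12% and 12.3% of all genes, with a median of -0.015. Srsf5 read 10.08, 10.60 and 11.19 at hypoxia, against 11.28, 11.35, 11.66 and 11.64 untreated, and fell by 0.90 on the log2 scale (SE 0.12, adjusted p = 0.000246), and Srsf1 fell by 0.69. Srsf6 changed by -0.79, but its other probe had the opposite sign. Hnrnpk rose by 1.24 ± 0.30, with 1 of its 2 other probes of opposite sign, and without TAp73+/+ untreated replicate 1 it was not called (adjusted p = 0.062) and 0 of the 31 were called higher. Of 56 tested cytosolic ribosomal proteins 7 were called higher (12.5%) and 1 lower (1.79%), against 9.12% and 12.3% of all genes, with a median of 0.044. Rpl7a and Rps6 rose by 0.57 ± 0.17 and 0.55 ± 0.13, and Rps15a fell by 0.57 on the log2 scale. Without TAp73+/+ untreated replicate 1 there was 1 ribosomal gene called higher, and Rpl7a had an adjusted p of 0.109. Once the probe score entered the fit 2 were called higher, and Rpl7a and Rps6 were at 0.099 and 0.27 (adjusted p = 0.623 and 0.197). With 6 group means and the probe score Rpl7a changed by -0.17.

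Among the 15 largest falls, 1 further gene is neither histone nor mitochondrial nor Txnip. Atf7ip, a partner of the H3K9 methyltransferase SETDB1, read 7.60, 8.63 and 9.58 at hypoxia, against 9.98, 9.81, 9.62 and 9.79 untreated. It fell by 1.25 on the log2 scale (SE 0.26, adjusted p = 0.00493) and was lower at 8 h than at 4 h by -0.99.

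The marker genes were themselves part of the comparison. Vim, an intermediate filament gene, rose by 0.74 ± 0.15 (adjusted p = 0.00441), with its other probe of opposite sign. With Fn1 it was 1 of 2 fibroblast markers called higher among 6 tested (33.3%, against 9.12% of all genes). Neither was called with the probe score in the fit (adjusted p = 0.0721 for Vim and 0.213 for Fn1). Esrp1, an epithelial splicing regulator, fell by 0.37 on the log2 scale (SE 0.10, adjusted p = 0.0201, and 0.069 without TAp73+/+ untreated replicate 2). It was the 1 member called among 7 tested epithelial markers (14.3%), near the 12.3% of all genes called lower. The 2 endothelial, 2 leukocyte, 3 muscle and 2 neural markers tested had medians of -0.019, -0.077, -0.068 and -0.14.

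The interaction of hypoxia and genotype tested whether the responses differed in size. In limma 0 genes were called (0% of those tested), while 950 had an unadjusted p below 0.05. With 6 group means in place of pooled hypoxia 127 were called, and 77 once the probe score was a covariate. Egln1 was among the shared genes with a larger change in TAp73+/+ cells (TAp73-/- minus TAp73+/+ response -1.09), and its difference was not called. Of the shared genes, 643 of 961 higher and 887 of 1314 lower genes had the larger change in TAp73+/+ cells.

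Between 8 h and 4 h at 1% oxygen 2303 genes were called (21.2% of those tested), 1431 higher and 872 lower at 8 h. Of the 2275 shared genes 404 were among them. At 8 h 161 shared genes had risen further and 151 had fallen further, while 46 had moved back from a rise and 46 from a fall. The largest differences above 0 between 8 h and 4 h were in Tenm4, Txnip, Tafa2, Mycl, Il11 and Espn, between 1.27 and 1.46. Of these, Tenm4, Mycl and Espn were not called in the pooled comparison. Tafa2 was called at 1.33 ± 0.36, but not without TAp73+/+ untreated replicate 1 (adjusted p = 0.0815).

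The pooled comparison called 51 genes that lacked 1 direction in the 4 groups, 31 higher and 20 lower. The largest were Tsc22d1 at 0.97, Klf2 at 0.92, Sik1 at 0.83, Adm2, Cryab at 0.82 and Ppfibp1 at 0.77. Adm2 was not above background on any untreated array and was at least 1.32-fold higher at hypoxia. Each of the 6 had 1 group at or slightly below its untreated level, which was a TAp73-/- group for all but Klf2, whose TAp73+/+ cells at 4 h differed by -0.02. None of the 6 calls held in either fit that left out 1 untreated TAp73+/+ array, with adjusted p-values up to between 0.0746 for Adm2 and 0.152 for Cryab.

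At the threshold of the rule, Zfp532 at 0.23 and Mvb12a at -0.21 lay just inside with an adjusted p of 0.0498, and Commd7 at -0.22 and Ube2j2 at 0.56 lay just outside with 0.05.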

How the data were processed

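RNA of 12 samples was measured on Illumina mouse bead arrays, and samples were grouped by the labels' genotype and time. Per the file headers, the deposited non-normalised table gives the intensity of 45281 probes per array, each with its detection p-value. A second deposited table, of linear intensity values already processed with Partek per the submitters' processing notes, served as an alternative. Probe names came from the platform table, with symbols updated through RefSeq genes of GRCm38.p6 (34807 of 34885 probes with 1 symbol).

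Signals were background-corrected and quantile-normalised on the log2 scale with neqc (offset 16) in limma 3.58.1 and R 4.3.3, starting from the deposited signals. A probe was kept where some group had a detection p below 0.05 on its 2 arrays (21223 probes), and the brightest named probe stood for each gene. The fit was lmFit and eBayes over all 12 arrays with genotype and hypoxia as terms, with Benjamini-Hochberg adjustment over the 10873 genes. Interaction and time were tested in fits of the same kind. The script was tested on simulated data. Between 42.8% and 44.5% of probes were detected per array, and the number of arrays limits the precision.

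The members and the gene lists were chosen with earlier results of these data known. Named genes were Trp73, Hif1a, Epas1, Arnt and Vegfa, the 15 largest shared rises and falls with arrays apart in both genotypes, up to 5 called members each way of each list, the largest changes with time or without 1 direction, and the genes nearest the threshold. Alternatives covered scaling, offset, filter, probe choice, design and single arrays. The labels and files used here name no slide or scan date, so no such block was run. Replicate numbers did not pair the arrays: correlations of their deviations from the group means lay between -0.25 and 0.125.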

Additional observations from a re-analysis of the deposited data

Results flagged for a closer look

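Several named genes differed between 8 h and 4 h of hypoxia in the test of that difference, which used genotype as a block. Values are 8 h minus 4 h on the log2 scale, so a positive value means a higher signal at 8 h. Among the largest shared rises the differences were 0.62 for Smtnl2, 0.58 for Tmem74b, 0.40 for Slc2a3, 0.37 for Stc1, 0.28 for Ndrg1 and -0.43 for Stc2. Among the largest shared falls they were -1.72 for H1f2, -0.72 for H2ac21, -0.70 for H2ac11, -0.79 for H2ac15, -0.82 for H2ac12, -0.42 for H2ac10, -0.95 for ND4L, -0.99 for Atf7ip and 1.42 for Txnip. The H2bc genes H2bc9, H2bc4, H2bc7, H2bc6 and H2bc14 differed by -1.47, -1.45, -1.42, -1.40 and -1.33.

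In oxygen sensing, Hif1a fell by 1.00, Siah2 differed by -0.69, Hif3a by 0.66 and Arnt by 0.30. In metabolism, the differences were 0.75 for Slc16a3, 0.53 for Pdk1, 0.45 for Pgm1, 0.40 for Bnip3l, -0.31 for Elovl6 and -0.33 for Cycs. The collagen enzymes Plod2 and P4ha2 differed by 0.64 and 0.55, and the Jumonji-class genes Jmjd6 and Kdm8 by -0.24 and -0.41. In stress and signalling, Ddit3 differed by 0.95, Atf3 by 0.81, Dusp1 by 0.49, Klf2 by 1.17, Gadd45a by 0.49, Pgf by 0.85 and Cryab by 0.95. Il11, Cxcl2, Nfkbia and Vcam1 differed by 1.28, 1.21, 0.51 and 0.65. In the cell cycle, E2f1 differed by 0.49, Plk1 by -0.39, Cenpf by -0.52 and Cdc20 by -0.64. The clock genes Dbp and Per1 differed by 0.51 and 0.35, the interferon-stimulated genes Gbp2 and Cmpk2 by -0.51 and 0.37, and the RNA-binding genes Hnrnpk and Srsf6 by -0.82 and 0.28. Tenm4, Tafa2, Mycl and Espn differed by 1.46, 1.38, 1.33 and 1.27, and Ube2j2 by -0.52.

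Single arrays stood far from the others of their condition for 11 values, by a gap test that chance passes in about 1 of 20 uniform groups. The test was run in both conditions for each of 146 genes, so that rate alone would give at least as many. Each condition also mixes genotypes, so the rate is only approximate and the values below are a description. Among the 4 untreated arrays, TAp73-/- untreated replicate 1 stood apart for Trp73 at 5.29 and TAp73-/- untreated replicate 2 for Siah2 at 6.68. TAp73+/+ untreated replicate 1 stood apart for Arnt at 9.87, H2ac11 at 10.84, Ndufc2 at 11.27, Rps6 at 12.80 and H2bc9 at 8.25, and replicate 2 for Ankrd37 at 8.00 and Cycs at 12.36. Among the 8 hypoxia arrays, TAp73-/- 4 h hypoxia replicate 2 stood apart for Cited2 at 12.61 and Slc2a1 at 14.14.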

How the results depend on the processing

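The counts depended on the design and on the untreated arrays more than on scaling. With no genotype block 363 genes were called higher and 336 lower, all of them shared. With 6 group means, where the spread between replicates alone enters the error, 1724 were called higher and 2244 lower. The median standard error there was 0.0775, against 0.105 as reported. The 8 h and untreated arrays alone gave 1653 higher, 1652 of them shared. TAp73-/- arrays alone gave 154 higher and 101 lower, and TAp73+/+ arrays alone 620 higher and 709 lower. Adding 6 group means and the probe score together, an alternative chosen after seeing the data, gave 143 higher (128 shared) and 76 lower (67 shared). Its median standard error was 0.185, against 0.105 as reported. With 1 array left out, calls ranged from 586 to 1197 higher and from 736 to 1681 lower, and shared genes from 585 to 1156 higher and from 732 to 1638 lower. With the submitters' processed values 2174 of the 2275 shared genes remained called, and with the mean of all probes 1853 did, 61 having the opposite sign. The interaction called 1 gene with the submitters' values, 2 with an offset of 50, 3 with the mean of all probes, 127 with 6 group means, 77 with the probe score, 11 at 4 h alone, 15 at 8 h alone and 0 to 1 with 1 array left out. Between 8 h and 4 h, 148 genes were called higher and 90 lower with no genotype block, 148 and 78 with the probe score, 288 and 158 in TAp73-/- arrays alone, 735 and 449 in TAp73+/+ arrays alone, and 906 to 1553 higher and 487 to 1014 lower with 1 array left out.

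Of the genes named with values, these changed sign: Hif1a was -0.45 with the probe score, Dusp6 was 0.021 with the mean of all probes, and with 6 group means and the probe score Mcm3 was -0.014, Ccne2 -0.33, Atp5pb -0.35, Ndufc2 -0.16 and Rpl7a -0.17. The cause of these changes was not tested. Of 134 named genes called in the comparison, 92 kept their call with any 1 array left out. Replicate numbers did not pair the arrays, and with the replicate number as a block (replicate block) 860 shared higher and 1147 shared lower genes were called, with 1999 of the 2275 remaining. Signal limits the smallest changes: of the shared genes, 37 were above background on no untreated array and 20 on no hypoxia array.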

Other observations

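Shared genes were spread over the range of signal. When the tested genes were divided by mean signal into 3625 low, 3624 middle and 3624 high genes, the shared higher genes made up 6.9% of the low, 10.5% of the middle and 9.16% of the high genes. The shared lower genes made up 10.4%, 14.2% and 11.6% of the same groups. Of the 2275 shared genes, 1031 had more than 1 probe past the detection filter, and for 699 of these all probes had the sign of the change.

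Of the 127 genes that the interaction called with 6 group means, 54 were shared genes, whose 4 groups all had 1 direction. Shared genes were 20.9% of all tested genes, and the overlap was not tested.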
